A study of Macaca fascicularis with 4 samples.

Results

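Desmin, dystrophin with its partners, filamin C and dysferlin hold the contractile apparatus of a muscle fibre to its surface membrane and help that membrane to survive. The 9 genes described here were taken by name: DES, SYNM and FLNC for the cytoskeleton, DMD, DAG1, SGCA, SGCB and SGCD for the dystrophin complex, and DYSF for membrane repair. They are 9 of 13982 gene names with counts in full-length RNA libraries from the cynomolgus monkey (Macaca fascicularis). The tissues were muscle, oWAT, sWAT and liver, with 1 library each. RNA from 5 monkeys was pooled for every library. The labels name no genotype, treatment or age. They leave the terms oWAT and sWAT unexplained, and WAT commonly stands for white adipose tissue. The deposited files for these tissues carry other fat-depot abbreviations in their names, and the labels were followed, so every oWAT and sWAT value rests on the labels. With 1 library per tissue there are no replicates and no test, so every interval below covers counting error alone and says nothing of the spread between animals.

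Desmin and synemin are intermediate filament proteins that tie neighbouring Z-discs to each other and to the membrane at rib-like sites called costameres. Dystrophin binds actin inside the fibre and dystroglycan in the membrane, and dystroglycan binds laminin outside, while the sarcoglycans form a subcomplex that steadies this link. Dysferlin takes part in resealing torn membrane. Loss of several of these proteins causes muscular dystrophies or myopathies in humans, and several of the genes are also used by smooth muscle and other tissues.

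Counts assigned to genes numbered 439872 in muscle, 396797 in oWAT, 383896 in sWAT and 437587 in liver, so that 1 count was worth 2.27 to 2.60 CPM (counts scaled to a common library total). The tissue labels were checked against marker genes. The 14 myofibre markers summed to 131577 CPM in muscle, against 179 CPM in oWAT, 91.2 CPM in sWAT and 18.3 CPM in liver, and ACTA1, the skeletal actin, had 15827, 0, 1 and 1 counts in that order. Hepatocyte markers summed to 2.27 CPM in muscle, 10.1 in oWAT, 2.60 in sWAT and 178074 in liver, and adipocyte markers to 1787, 20043, 23803 and 519 CPM. Muscle therefore held some counts of the adipocyte list, of which LPL (573 CPM) and CD36 (518 CPM) were the largest, with ADIPOQ at 97.8 CPM and CIDEC at 0. Whether these came from adipocytes was not tested. Hepatocyte markers were at or near 0 outside liver. Smooth muscle and pericyte markers were present in every library, at 1580 CPM in muscle, 2135 in oWAT, 2881 in sWAT and 379 in liver.

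Taken by their sum, the 9 genes held 1.05% of muscle counts (exact 95% binomial interval 1.02 to 1.08), against 0.0575% in oWAT (0.0502 to 0.0654), 0.0776% in sWAT (0.0691 to 0.0870) and 0.0400% in liver (0.0343 to 0.0464). DES supplied most of the muscle sum. Without it the other 8 genes held 0.293% in muscle (0.277 to 0.309), 0.0537% in oWAT, 0.0748% in sWAT and 0.0400% in liver. A gene was called higher in a library where it had at least 10 counts there and its CPM ratio had an exact 95% interval that lay wholly above 2. Over all genes with at least 10 muscle counts, 6.71% were called higher in muscle than in all 3 other libraries. Of the 9 genes, 5 were called: DES, SYNM, FLNC, SGCA and DYSF. DMD, DAG1 and SGCB were tested and not called, and SGCD had too few counts to be tested. In bulk RNA, fewer cells of a type and less RNA per cell cannot be told apart.

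**Figure D1:**
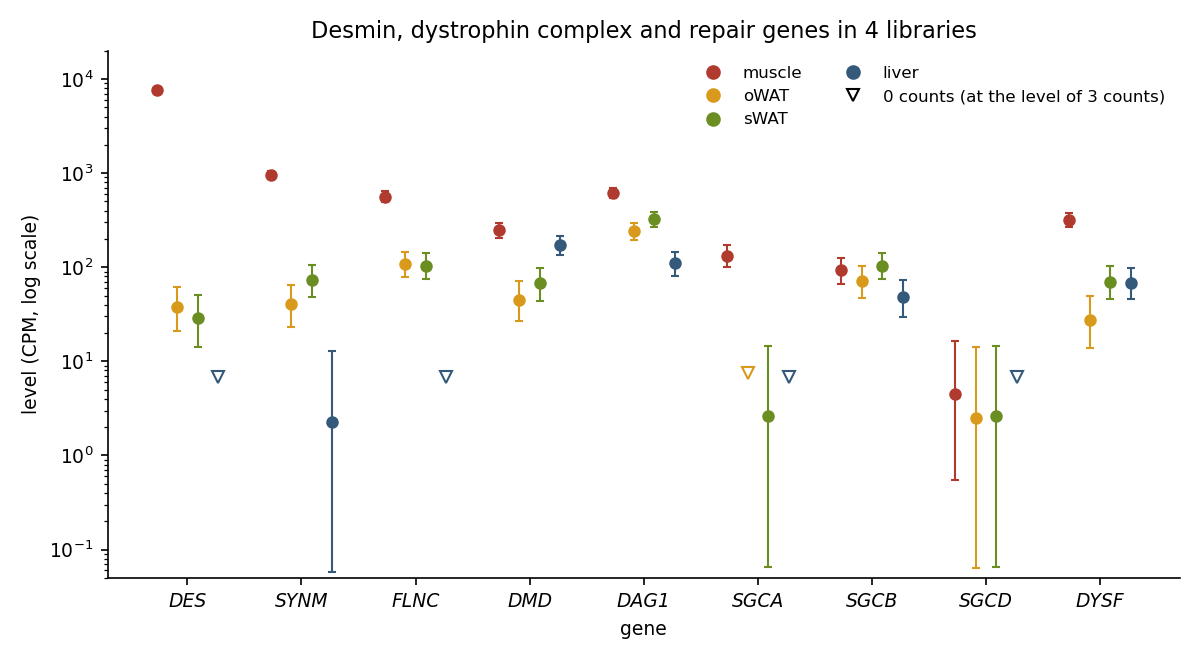
Level of each gene (x axis) in CPM on a log scale (y axis) in the muscle, oWAT, sWAT and liver libraries; points are the single library of each tissue, bars are exact 95% Poisson intervals, and open triangles mark 0 counts, drawn at the level of 3 counts. DES reached 7591 CPM in muscle, while SGCB stayed between 48.0 and 104 CPM in all 4 libraries and SGCD did not exceed 2 counts in any.

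Among the cytoskeletal genes, DES showed the widest span. It had 3339 counts in muscle (7591 CPM, exact 95% Poisson interval 7336 to 7853), 15 in oWAT (37.8 CPM), 11 in sWAT (28.7 CPM) and 0 in liver (upper limit 8.43 CPM). Muscle stood far above the rest and both WAT libraries lay close together. The ratio of muscle to oWAT was 201 (122 to 359) and that of muscle to sWAT was 265 (148 to 531). Against liver, the ratio of DES in muscle was 1107 with liver set to a floor of 3 counts. The exact lower 95% limit of that ratio, from 0 liver counts, was 900.

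SYNM encodes synemin, a large intermediate filament protein that assembles with desmin. It had 421 counts in muscle (957 CPM), 16 in oWAT (40.3 CPM), 28 in sWAT (72.9 CPM) and 1 in liver (2.29 CPM). The order of tissues was that of a muscle gene with a low level in WAT. Muscle exceeded sWAT 13.1-fold (8.95 to 19.99) and oWAT 23.7-fold (14.4 to 41.9), and its ratio to the single liver count was 419 (74.8 to 16581). The drop in WAT was less steep for SYNM than for DES. SYNM made up 11.2% of the counts of SYNM and DES together in muscle (10.2 to 12.2), 51.6% in oWAT (33.1 to 69.8) and 71.8% in sWAT (55.1 to 85.0). The odds of a SYNM count against a DES count in muscle were 0.118 of those in oWAT (0.0541 to 0.258) and 0.0496 of those in sWAT (0.0221 to 0.104). Such a share needs no scaling between libraries, and it is compared between libraries only, since the transcripts differ in length.

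FLNC encodes filamin C, the muscle filamin, which crosslinks actin at Z-discs and costameres. It had 248 counts in muscle (564 CPM), 43 in oWAT (108 CPM), 40 in sWAT (104 CPM) and 0 in liver. Muscle was 5.20-fold above oWAT (3.75 to 7.37) and 5.41-fold above sWAT (3.86 to 7.76). The ratio of muscle to liver was 82.2 with liver at the floor, and its exact lower 95% limit was 66.4. The WAT libraries were not separated, with an oWAT to sWAT ratio of 1.04 (0.660 to 1.64).

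DES, SYNM and FLNC were also the genes called higher in both oWAT and sWAT than in liver. That is 3 of the 7 genes tested here, against 20.9% of all genes tested in this comparison. SGCA and SGCD had too few counts, and with 7 genes the difference from that share was not tested. With liver at the floor, the ratios of FLNC to liver were 15.8 in oWAT and 15.2 in sWAT. Their exact lower 95% limits were 12.3 and 11.8. For DES the ratios at the floor were 5.51 in oWAT and 4.18 in sWAT, with lower limits of 3.96 and 2.86. SYNM had ratios of 17.6 (2.74 to 740) and 31.9 (5.28 to 1305) to its 1 liver count. Beside these values, all 13 smooth muscle and pericyte markers had counts in both WAT libraries, among them MYH11 with 75 and 172 counts and ACTA2 with 66 and 65, while 4 of 13 were at 0 in liver. MYLK of this list differed, with 104 counts in oWAT, 145 in sWAT and 115 in liver. It supplied 115 of the list's 166 liver counts. Of 14 myofibre markers, 8 were at 0 in oWAT and 8, not all the same genes, in sWAT. ACTN3 supplied 55 and 21 of the 71 and 35 counts of the whole list. The part of either cell type in the WAT levels was not tested. With edgeR's TMM scaling (a trimmed mean of log ratios) or DESeq2's size factors, 1 call remained in this comparison, FLNC.

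Dystrophin itself did not follow the cytoskeletal genes. DMD had 109 counts in muscle (248 CPM, 203 to 299), 18 in oWAT (45.4 CPM, 26.9 to 71.7), 26 in sWAT (67.7 CPM, 44.2 to 99.2) and 75 in liver (171 CPM, 135 to 215). The liver level was the nearest to muscle, and the WAT levels were the low ones. Muscle exceeded oWAT 5.46-fold (3.30 to 9.56) and sWAT 3.66-fold (2.37 to 5.85), but its ratio to liver was 1.45 (1.07 to 1.97). That ratio came to 1.06 (0.786 to 1.45) with TMM and 1.07 (0.787 to 1.45) with DESeq2 scaling, so muscle and liver were not separated beyond counting error there. Set against liver, DMD in oWAT stood at 0.265 (0.149 to 0.447) and in sWAT at 0.395 (0.243 to 0.625). The same liver library had 0 counts of DES, FLNC and SGCA and 8 counts in all of the 14 myofibre markers. In human and mouse, DMD is known to give shorter products from internal promoters outside muscle; counts per gene do not separate them. In the RefSeq table for T2T-MFA8v1.1, 5 other entries lie within the span of DMD, among them a long non-coding RNA; none has counts under its RefSeq name, and whether counting used strand is not stated.

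DAG1 encodes both chains of dystroglycan, which joins dystrophin to laminin. It had 270 counts in muscle (614 CPM), 96 in oWAT (242 CPM), 124 in sWAT (323 CPM) and 48 in liver (110 CPM), and was thus present everywhere. Muscle was 2.54-fold above oWAT (2.003 to 3.24), 1.90-fold above sWAT (1.53 to 2.37) and 5.60-fold above liver (4.10 to 7.77). The sWAT ratio kept DAG1 from being called, and with TMM scaling it was called at 2.53-fold (2.04 to 3.16).

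The ratio of DMD to DAG1 set liver apart from the other tissues. DMD made up 28.8% of the counts of both genes in muscle (24.3 to 33.6), 15.8% in oWAT (9.63 to 23.8), 17.3% in sWAT (11.6 to 24.4) and 61.0% in liver (51.8 to 69.6). The odds of DMD against DAG1 in muscle were 0.259 of those in liver (0.165 to 0.404), 2.15 times those in oWAT (1.22 to 3.97) and 1.92 times those in sWAT (1.17 to 3.24). These odds do not depend on how libraries are scaled. They could depend on the length of the DMD products in each tissue, which was not tested. Measured against SGCB in place of DAG1, the odds of DMD in muscle were 0.745 of those in liver (0.386 to 1.41), an interval that includes 1.

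**Figure D2:**
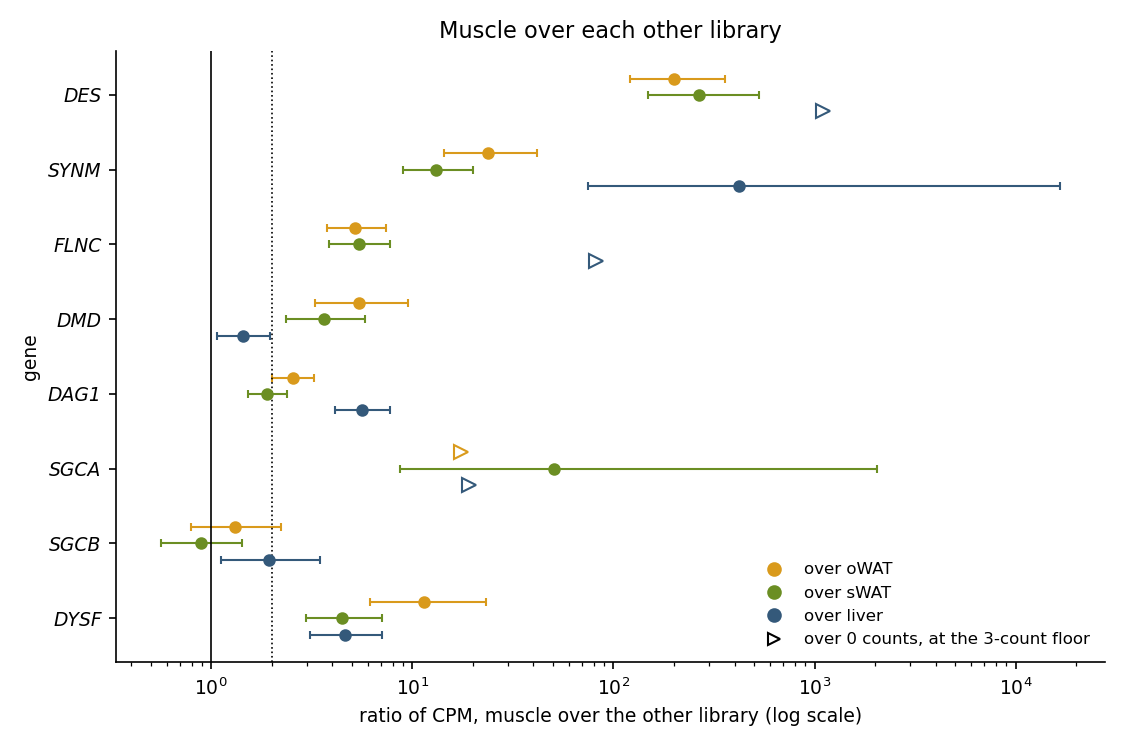
Ratio of CPM in muscle to CPM in oWAT, sWAT and liver (x axis, log scale) for the 8 genes with at least 10 muscle counts (y axis); bars are exact 95% intervals, open triangles are ratios to a floor of 3 counts where the other library had 0, and lines mark ratios of 1 (solid) and 2 (dotted). The DMD ratio to liver was 1.45 and the SGCB ratio to sWAT was 0.895, while all 3 ratios of DES, SYNM, FLNC, SGCA and DYSF lay above 4.

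The sarcoglycans split among themselves. SGCA encodes alpha-sarcoglycan, known as a protein of striated muscle. It had 58 counts in muscle (132 CPM), 0 in oWAT, 1 in sWAT and 0 in liver. All but 1 of its counts thus lay in muscle, at a ratio of 50.6 to the single sWAT count (8.73 to 2033). With oWAT and liver at the floor, the ratios of SGCA in muscle were 17.4 and 19.2. Their exact lower 95% limits were 13.7 and 15.1.

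SGCB encodes beta-sarcoglycan, which is needed to build the subcomplex and is also made outside striated muscle. It had 41 counts in muscle (93.2 CPM), 28 in oWAT (70.6 CPM), 40 in sWAT (104 CPM) and 21 in liver (48.0 CPM). These were the most even levels among the 8 genes tested. The ratio of muscle to sWAT was 0.895 (0.564 to 1.42), and it became 1.19 with TMM and 1.15 with DESeq2 scaling, each with an interval that includes 1. Ratios of muscle were 1.32 to oWAT (0.797 to 2.22) and 1.94 to liver (1.12 to 3.46). Which of these intervals includes 1 depended on the scaling. With TMM the ratios were 1.95 to oWAT (1.18 to 3.28) and 1.43 to liver (0.825 to 2.55). DESeq2 scaling gave 1.93 (1.17 to 3.24) and 1.43 (0.827 to 2.55). SGCA made up 58.6% of SGCA and SGCB counts in muscle (48.2 to 68.4), 0% in oWAT (0 to 12.3), 2.44% in sWAT (0.0617 to 12.9) and 0% in liver (0 to 16.1).

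SGCD encodes delta-sarcoglycan, a core partner of SGCB. It had 2 counts in muscle, 1 in oWAT, 1 in sWAT and 0 in liver. At this depth no difference between tissues was detectable, and no ratio is given.

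Outside the 9 genes, SGCE (epsilon-sarcoglycan), a paralogue of SGCA, had 18 counts in muscle, 25 in oWAT, 21 in sWAT and 0 in liver. Its ratio of muscle to oWAT was 0.649 (0.334 to 1.24), so these libraries were not separated. Its ratio of muscle to liver was 5.97 with liver at the floor, with an exact lower 95% limit of 4.37.

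DYSF encodes dysferlin, a membrane protein with calcium-binding C2 domains that acts in membrane resealing. It had 139 counts in muscle (316 CPM), 11 in oWAT (27.7 CPM), 27 in sWAT (70.3 CPM) and 30 in liver (68.6 CPM). Muscle was highest, sWAT and liver were level with each other, and oWAT was lowest. The ratio of muscle was 11.4 to oWAT (6.18 to 23.4), 4.49 to sWAT (2.96 to 7.06) and 4.61 to liver (3.09 to 7.09). The ratio of sWAT to liver was 1.03 (0.587 to 1.79), and it became 0.567 (0.324 to 0.987) with TMM.

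Counted library by library, 7 of the 8 genes tested were called higher in muscle than in oWAT, against 8.30% of all genes tested. The count was 6 of 8 against sWAT, where 9.23% of genes were called, and 6 of 8 against liver, where 23.0% were called. DMD was called against both WAT libraries but not liver, and DAG1 against oWAT and liver but not sWAT. SGCB was called in none of the 3 pairings.

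Between the WAT libraries, none of the 7 genes tested was called in either direction, where 1.43% of genes were called higher in oWAT and 0.767% higher in sWAT. A count of 0 among 7 lies near these shares, and SGCA and SGCD had too few counts. The intervals of the ratio of oWAT to sWAT lay below 1 for DYSF at 0.394 (0.176 to 0.821) and for DAG1 at 0.749 (0.568 to 0.986). For DMD the ratio was 0.670 (0.346 to 1.27), for SYNM 0.553 (0.279 to 1.06), for SGCB 0.677 (0.402 to 1.13) and for DES 1.32 (0.566 to 3.18). These intervals include 1 with library totals, and that of DES reaches past a 3-fold difference. For SYNM the ratio became 0.498 (0.252 to 0.954) with TMM and 0.486 (0.246 to 0.931) with DESeq2 scaling, both below 1. For SGCB it became 0.596 (0.354 to 0.990) with DESeq2 scaling, while its TMM interval still included 1.

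Several of the genes have a relative in the same family that is known from a wider range of cells. For DES, FLNC and DYSF, the relatives VIM, FLNA and MYOF were lower in muscle than in WAT. VIM (vimentin, the intermediate filament of mesenchymal cells) had 143 counts in muscle, 397 in oWAT, 439 in sWAT and 13 in liver. FLNA, a filamin of non-muscle cells, had 139 counts in muscle, 345 in oWAT, 451 in sWAT and 21 in liver. MYOF (myoferlin, a ferlin that acts in membrane fusion) had 20 in muscle, 92 in oWAT, 190 in sWAT and 24 in liver. All 3 were called higher in oWAT and in sWAT than in muscle, where 11.4% and 11.2% of all genes tested were called. Their ratios of muscle to oWAT ran from 0.196 for MYOF (0.114 to 0.321) to 0.363 for FLNA (0.296 to 0.444). With TMM scaling these ratios became 0.290 and 0.537, and FLNA and VIM were then no longer called against oWAT, nor with DESeq2 scaling. How reads shared by paralogues were counted is not stated, so the split within filamins carries that uncertainty.

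As shares of a pair, DES made up 95.9% of DES and VIM counts in muscle (95.2 to 96.5), 3.64% in oWAT (2.05 to 5.93) and 2.44% in sWAT (1.23 to 4.33). FLNC made up 64.1% of FLNC and FLNA counts in muscle (59.1 to 68.9), 11.1% in oWAT (8.14 to 14.6), 8.15% in sWAT (5.88 to 10.9) and 0% in liver (0 to 16.1). The shares of DES and of FLNC were thus higher in muscle than in either WAT library. In liver DES had 0 of the 13 counts of DES and VIM, a share of 0% (0 to 24.7). DYSF made up 87.4% of DYSF and MYOF counts in muscle (81.2 to 92.1), 10.7% in oWAT (5.45 to 18.3), 12.4% in sWAT (8.36 to 17.6) and 55.6% in liver (41.4 to 69.1). Liver was intermediate for this pair, and its odds of DYSF were below those of muscle by an odds ratio (muscle over liver) of 5.50 (2.56 to 12.04).

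Utrophin (UTRN), the dystrophin paralogue known from non-muscle cells and the neuromuscular junction, had 104 counts in muscle, 161 in oWAT, 193 in sWAT and 73 in liver. DMD made up 51.2% of DMD and UTRN counts in muscle (44.3 to 58.1), 10.1% in oWAT (6.07 to 15.4), 11.9% in sWAT (7.90 to 16.9) and 50.7% in liver (42.3 to 59.0). Muscle and liver therefore had nearly the same balance of counts, with an odds ratio of 1.02 (0.656 to 1.59), an interval that still allows a difference of that width. Counts per gene do not separate DMD products of different length. Whether such products differ between the tissues and alter this balance was not tested. The odds of DMD in muscle were 9.32 times those in oWAT (5.26 to 17.3) and 7.74 times those in sWAT (4.67 to 13.2).

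**Figure D3:**
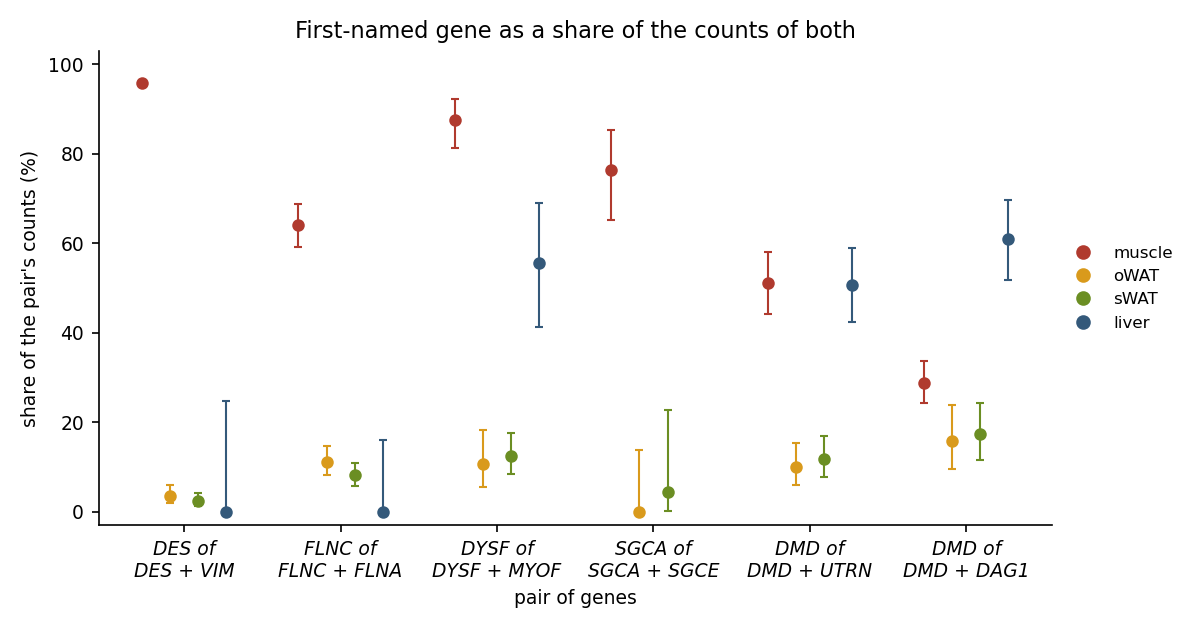
Counts of the first-named gene as a percentage of the counts of both genes of a pair (y axis) for 6 pairs (x axis) in muscle, oWAT, sWAT and liver; bars are exact 95% binomial intervals, and SGCA with SGCE has no liver point because both had 0 counts. DMD with UTRN stands at 51.2% in muscle and 50.7% in liver, against 10.1% in oWAT and 11.9% in sWAT.

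The other genes of these systems were described by 4 lists. Their counts of called genes are given over the genes measured, meaning at least 10 counts over the 4 libraries. The background of 6.71% is over genes with at least 10 counts in muscle, of which the lists hold 7, 6, 20 and 15 in the order described. Of 14 further genes of the dystrophin complex, 8 were measured and 2 were called higher in muscle. The list's median log2 ratio of muscle to the highest other library was -0.40, against -0.91 for all 10127 measured genes and 2.26 for the 8 measured genes among the 9. With TMM it became 0.16 and with DESeq2 scaling 0.15, so its sign depends on the scaling. LAMA2, the laminin chain that dystroglycan binds in muscle, had 51 counts in muscle, 18 in oWAT, 99 in sWAT and 3 in liver and was not called.

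None of 10 measured genes of dystroglycan glycosylation, of 18 listed, was called higher in muscle. Their median log2 ratio was 0.15, and it became 0.42 with TMM and 0.42 with DESeq2 scaling. These enzymes build the sugar chain by which dystroglycan binds laminin. B3GALNT2, the most counted of the list, had 42 counts in muscle, 7 in oWAT, 15 in sWAT and 9 in liver. Low counts limit this list, since 6 of its genes reached 10 counts in muscle. A count of 0 among 6 lies near the share of 6.71% over all genes.

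Of 22 measured genes of intermediate filaments and costameres, of 26 listed, 6 were called higher in muscle. XIRP1 and XIRP2, actin-binding Xin proteins of striated muscle, had 395 and 122 counts in muscle and 0 in the other 3 libraries. BAG3, a co-chaperone in the turnover of filamin, had 242 counts in muscle, 15 in oWAT, 17 in sWAT and 10 in liver. SYNC (syncoilin, a filament protein that binds desmin) had 105, 7, 5 and 0. NES (nestin) had 18 counts in muscle and 1 in each other library, and ANK3, a membrane-cytoskeleton adaptor, had 47 in muscle, 7 in oWAT, 4 in sWAT and 3 in liver. The list's median log2 ratio was -0.78, and it became -0.33 with TMM and -0.37 with DESeq2 scaling. Its most counted gene, LMNA (nuclear lamins A and C), was not called, at 0.643 of its oWAT level (0.567 to 0.728). That lower LMNA level depends on the scaling, since its log2 ratio was -0.64 and TMM adds 0.56 to every log2 ratio of muscle to oWAT. CRYAB, the small heat shock protein that chaperones desmin, had 8 counts in muscle, 16 in oWAT, 28 in sWAT and 0 in liver, a muscle to sWAT ratio of 0.249 (0.0982 to 0.562); it was named after its values were seen.

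Of 17 measured membrane-repair genes, of 23 listed, 3 were called higher in muscle. CAPN3, the muscle calpain, had 108 counts in muscle, 1 in oWAT, 1 in sWAT and 0 in liver. TRIM72 (mitsugumin 53), known in mouse to gather repair vesicles at a membrane tear, had 84 counts in muscle and 0 in the other 3 libraries. POPDC3 had 34 in muscle, 1 in oWAT, 3 in sWAT and 0 in liver. ANXA2, an annexin that binds membranes in the presence of calcium, had 111 counts in muscle, 395 in oWAT, 341 in sWAT and 17 in liver and was not called in muscle. The list's median log2 ratio was -0.61, and it became -0.13 with TMM and -0.13 with DESeq2 scaling. CAPN2, its most counted gene, stood at 0.463 of its oWAT level (0.396 to 0.541) with library totals. The size of that CAPN2 difference depends on the scaling, since TMM adds 0.56 to every log2 ratio of muscle to oWAT. CAV3, the caveolin of muscle, had 9 counts in muscle and 0 elsewhere, below the minimum for a call.

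**Figure D4:**
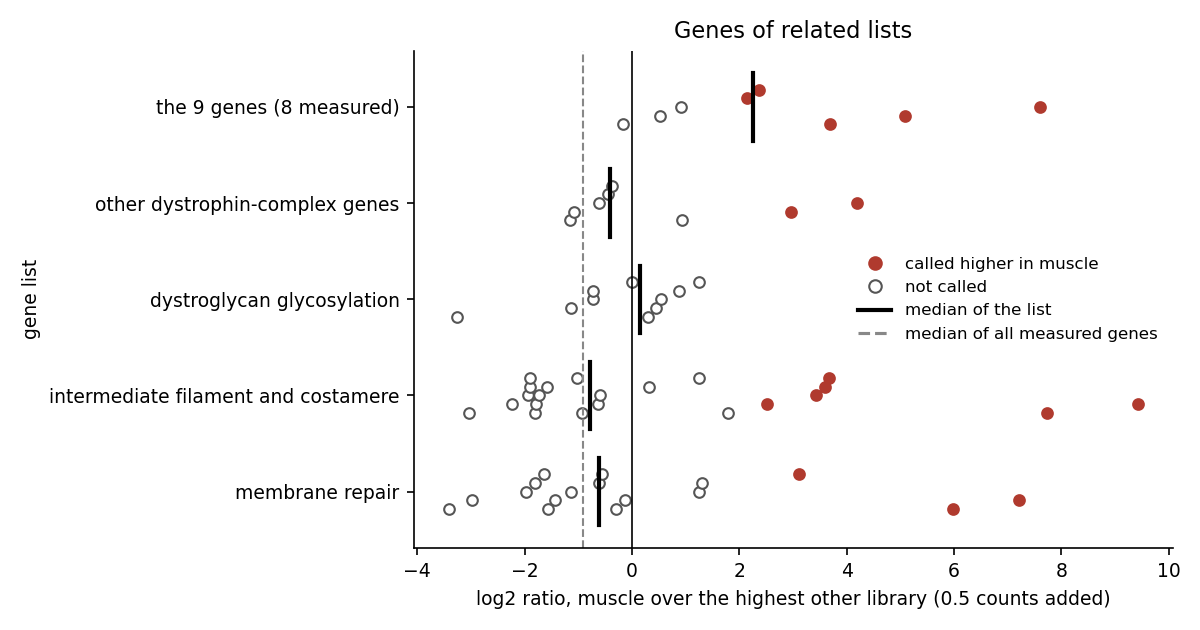
Log2 ratio of muscle to the highest of oWAT, sWAT and liver, with 0.5 counts added (x axis), for each measured gene of the 9 and of 4 related lists (y axis); filled points were called higher in muscle, open points were not, thick bars are list medians and the dashed line is the median of all measured genes at -0.91. The called genes of the related lists form a minority to the right, 2 of 8, 0 of 10, 6 of 22 and 3 of 17.

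To place each gene's pattern, its CPM in the 4 libraries was turned into shares of their sum, and the nearest of 5374 other named genes with at least 50 counts was found by 0.5 times the summed absolute difference of the shares. This is a likeness over 4 values and says nothing of function or control. DES, with 99.1% of its summed CPM in muscle, was nearest to ASB5, LDB3 and MSS51, all within 0.110 percentage points. SYNM was nearest to SEMA6C, MYOM1 and CAMK2A (1.74 to 2.78 points), FLNC to PDE4A, TMEM182 and RGMA (1.70 to 2.50 points) and SGCA to KCNC4, KLHL33 and RBM24 (0.151 to 0.762 points). DMD had 46.6% of its summed CPM in muscle and 32.2% in liver, and its nearest genes SERINC2, TMEM63B and SAR1B lay 4.92 to 5.95 points away. DAG1 was nearest to PCMTD2, ATXN1 and PRKAR2A (1.03 to 2.30 points), SGCB to CLASP2, MAP2K1 and SEPTIN10 (1.17 to 1.34 points) and DYSF to PRKAB2, MFSD4B and CEP85 (4.21 to 5.63 points). The genes nearest to DMD and DYSF were thus less alike to them than those nearest to the other 6.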

How the data were processed

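Full-length RNA libraries of muscle, oWAT, sWAT and liver were made from RNA of 5 monkeys pooled per tissue and read on a PacBio Sequel II, per the labels' protocols. Reads were aligned with minimap2 2.24, per the submitters' processing notes. The sources used here do not state how reads were assigned to genes, the genome build, the annotation or the use of strand. The deposited files hold unnormalized counts per gene name; an unlisted gene was taken as 0. Counts that name no gene (14.3% of the muscle file, 19.5% of oWAT, 16.6% of sWAT and 19.2% of liver) were left out of totals.

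Ratios of CPM have exact Clopper-Pearson 95% intervals from the share of both counts. Ratios to 0 use a floor of 3 counts (6.82 CPM in muscle, 7.56 in oWAT, 7.81 in sWAT, 6.86 in liver). Reads carry no molecular identifiers here, so intervals and floors cover counting error only. Odds ratios of gene pairs are conditional maximum-likelihood estimates with exact intervals; this measure and its pairs were chosen after the counts were seen. The genes and lists were chosen with earlier results of these data known. All 9 genes are named; of each list, up to 4 called genes with the most muscle counts, the most counted gene not called, paralogues of the 9, and the 3 genes nearest in pattern. ANK3, ANXA2, LAMA2, CAV3 and CRYAB are exceptions, named after their values were seen. Values of some list genes are not reported here. Alternatives were edgeR 4.0.16 TMM and DESeq2 1.42.0 size factors (scaling alone; R 4.3.3), other totals, minimum counts, interval widths and bounds. Python 3.11.15, SciPy 1.17.1 and pandas 2.3.3 were used. All 9 symbols matched the RefSeq table of T2T-MFA8v1.1; no coordinates are given, since the build behind the counts is not known here.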

Additional observations from a re-analysis of the deposited data

How the results depend on the processing

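TMM scaling shifted every log2 ratio of muscle to oWAT by 0.56, to sWAT by 0.41 and to liver by -0.44, and DESeq2 scaling by 0.55, 0.36 and -0.44. The 5 genes called in muscle were called again under both, with other library totals, without a minimum count, with a minimum of 20 counts and with a 99% interval; DAG1 joined them with TMM. With a lower bound above 4, 3 remained (DES, SGCA and SYNM), and with a bound above 1 DMD and DAG1 were added. The count of the 9 genes higher in both WAT libraries than in liver was 1 in place of 3 with TMM, with DESeq2 scaling, with a minimum of 20 counts, with a 99% interval and with a bound above 4, and that gene was FLNC each time. SGCB turned from below to above its sWAT level in muscle, at 1.19 with TMM and 1.15 with DESeq2 scaling. With a bound above 1, 2 of the 9 genes (DAG1 and DYSF) were higher in sWAT than in oWAT, in place of 0; the count was 808 for all genes in muscle in place of 390, 1 for glycosylation in place of 0 and 5 for membrane repair in place of 3. With a bound above 4 it was 232 for all genes, 1 for the dystrophin list in place of 2 and 7 for the related lists together in place of 11. Depth limits SGCD most, with 4 counts in all. No paired analysis was possible because each tissue has 1 library, and no replicate could be left out.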
